A study of Mus musculus with 10 samples.

Results

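Potassium channels let potassium leave a cell and so set its resting potential, repolarise it after each spike and limit how often it fires, while HCN channels open on hyperpolarisation and carry an inward cation current. The genes described here are those whose symbol is Kcna to Kcnd, Kcnf to Kcnh, Kcnj, Kcnk, Kcnn, Kcnq or Kcns to Kcnv followed by a number, with the Hcn genes. They were 80 of the 24982 genes in the count table, and the rule reads the symbol alone. By subfamily they were 40 voltage-gated genes, 15 inward rectifiers, 14 two-pore channels, 7 genes of the calcium-activated group and 4 HCN genes. The calcium-activated group holds Kcnn together with the related Kcnt channels, which sodium opens, and Kcnu1, a channel known from sperm. The gene of the large-conductance calcium-activated channel, Kcnma1, and the auxiliary subunits do not match these symbols and are given after the members.

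The tissue was the dentate gyrus, micro-dissected from the hippocampus of male C57BL/6 mice aged 10 weeks. In 5 of the mice Fndc5 was intact, and 5 carried a global Fndc5 knockout. Fndc5 is the gene of the membrane protein from which irisin is released. Each mouse gave 1 poly(A) library of 26226375 to 43802079 counts, and the labels do not describe the disrupted allele. Fndc5 was at 69.2 to 80.3 CPM (counts per 1000000 of the scaled library) in wild types and 45.4 to 56.7 CPM in knockouts, so this gene ran as labelled and the knockouts kept reads of it (log2 fold change -0.55, SE 0.057, edgeR adjusted p 0.000495). All 10 granule neuron markers listed were counted, from 19.8 CPM for Tdo2 to 436 CPM for C1ql3 in wild types. Of 4 erythroid genes the 3 globins had no counts, while Alas2 averaged 1.62 CPM across wild types (1.49 across knockouts). Blood content was not tested. Wild-type mouse 1 stood apart, with the lowest summed granule markers (2048 CPM, the other wild types 2268 to 2333, knockouts 2201 to 2364). It also had the highest summed interneuron markers (618 CPM, the other wild types 522 to 558, knockouts 495 to 544).

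Each potassium channel has a pore lined by a conserved selectivity filter. Voltage-gated subunits assemble as tetramers of related members, inward rectifiers pass current more readily into the cell, and two-pore subunits pair to form leak channels that are open at rest. Granule neurons are known for a strongly negative resting potential and sparse firing, for which leak and inward rectifier channels are of interest in this tissue. In brain extracts the same transcripts also come from interneurons, glia and vessels, and in bulk RNA fewer cells of a type and less RNA per cell cannot be told apart.

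The voltage-gated genes held most of the channel RNA. Levels between genes are given as RPKM, which is CPM divided by the length of all annotated exons in kilobases. Summed over members the level was 859 ± 9.41 RPKM in wild types (mean ± SD, n = 5, as for all values below), of which voltage-gated genes made up 61.7% ± 0.616. Inward rectifiers made up 22.9% ± 0.592, two-pore channels 9.61% ± 0.331, HCN genes 3.88% ± 0.217 and the calcium-activated group 1.97% ± 0.0916. The order of the 5 subfamilies was the same in each of the 10 mice. Of the 80 members 66 passed the low-count filter, and these spanned from 0.0464 ± 0.00896 RPKM for Kcnh7 to 85.9 ± 1.5 RPKM for Kcna1 in wild types.

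**Figure D1:**
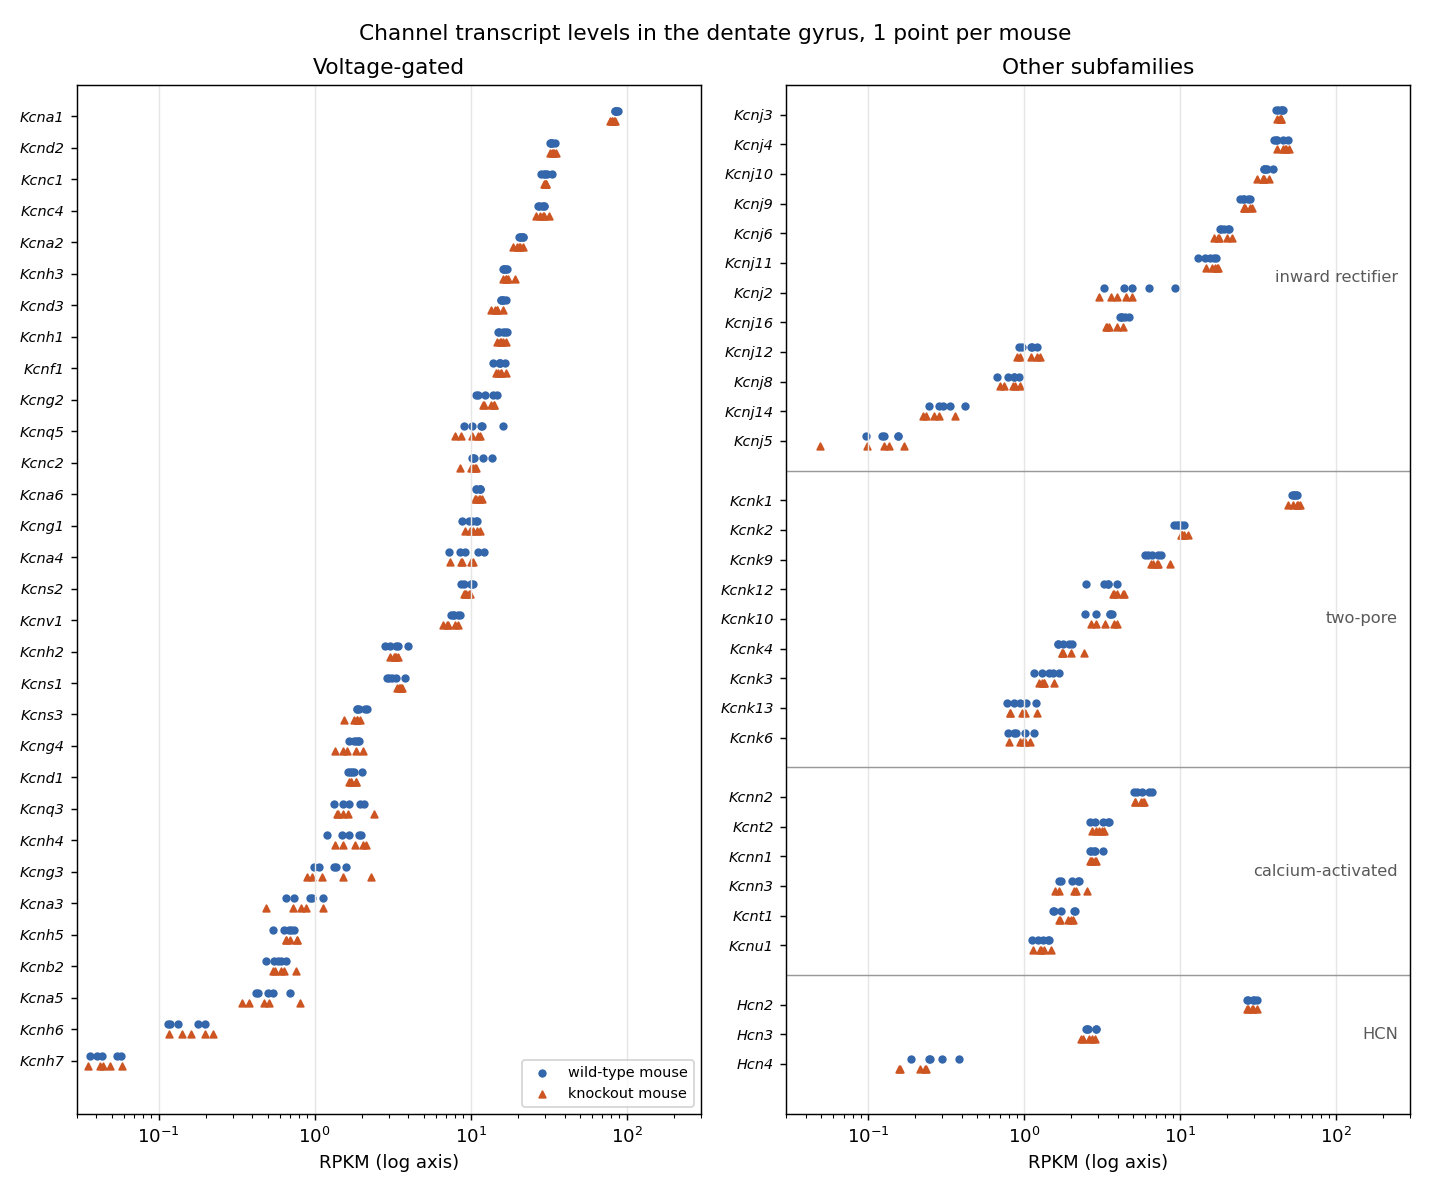
Level of 61 of the members that passed the filter, in RPKM on a log axis, with 1 circle per wild-type mouse and 1 triangle per knockout mouse, ordered by wild-type mean within each subfamily. Kcna1 leads the voltage-gated genes, Kcnj3 and Kcnj4 the inward rectifiers, Kcnk1 the two-pore channels and Hcn2 the HCN genes, and circles and triangles of a gene overlap.

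Among voltage-gated genes Kcna1 had the highest level, at 85.9 ± 1.5 RPKM. It encodes a low-threshold channel subunit of axons and terminals. Kcnd2, the main subunit of the transient A current of dendrites, was at 33.2 ± 0.859 RPKM. Kcnc1 and Kcnc4, of the same family, were at 30.4 ± 1.98 and 28.5 ± 1.22 RPKM and did not differ beyond their spread. The axonal Kcna2 was at 21.03 ± 0.564 RPKM. These levels depend on the exon length used: with the longest annotated transcript Kcna1 was at 102 RPKM, Kcnc1 at 37.0 and Kcnc4 at 28.5, so that the last pair differed beyond its spread.

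Within some families a single gene held most of the level. Kcna1 made up 66.4% of the summed RPKM of Kcna genes in wild types and Kcnd2 65.0% of Kcnd. The Kcnh family, relatives of the ether-a-go-go channel, was spread over Kcnh3 (16.6 ± 0.373 RPKM), Kcnh1 (15.997 ± 0.940 RPKM) and Kcnh2 (3.32 ± 0.426 RPKM). Kcnh3 and Kcnh1 did not differ beyond their spread, but on the longest transcript they were at 25.8 and 16.2 RPKM, which did. Kcnf, Kcng, Kcns and Kcnv encode subunits that form no channel alone and modify other voltage-gated channels. They were led by Kcnf1 (15.3 ± 0.98 RPKM), Kcng2 (12.6 ± 1.71 RPKM), Kcns2 (9.66 ± 0.732 RPKM) and Kcnv1 (7.99 ± 0.465 RPKM). Summed RPKM was 25.8 ± 2.36 for Kcng and 14.9 ± 0.910 for Kcns. Kcnh1, Kcnh2, Kcnh3, Kcnf1, Kcng2, Kcns2 and Kcnv1 were chosen after their values were seen.

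The inward rectifiers were led by Kcnj3 and Kcnj4. Kcnj3 was at 43.7 ± 1.97 RPKM and Kcnj4 at 43.7 ± 3.73 RPKM, which did not differ beyond their spread, ahead of Kcnj10 at 36.0 ± 2.02 RPKM and Kcnj9 at 26.1 ± 1.48 RPKM. Kcnj3, Kcnj9 and Kcnj6 encode subunits that G proteins open downstream of inhibitory receptors, and Kcnj6 was at 19.3 ± 1.18 RPKM (40.6 with its longest transcript, above Kcnj10 and Kcnj9 on that length). Kcnj4 and Kcnj2 encode strongly rectifying channels, and Kcnj2 was at 5.62 ± 2.34 RPKM. Kcnj10 and Kcnj16 encode the glial channel that takes up potassium, and Kcnj16 was at 4.33 ± 0.249 RPKM. Kcnj11, the pore of the ATP-sensitive channel, was at 15.3 ± 1.58 RPKM, and its vascular relative Kcnj8 at 0.823 ± 0.0996 RPKM. Kcnj6, Kcnj8 and Kcnj11 were chosen after their values were seen.

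Leak, calcium-activated and HCN genes were each led by a single gene. Kcnk1, a weakly conducting two-pore channel, was at 54.2 ± 1.62 RPKM and made up 65.7% of its subfamily. It was followed by the mechanosensitive Kcnk2 (9.85 ± 0.536 RPKM), the acid-sensitive Kcnk9 (6.72 ± 0.673 RPKM) and Kcnk12 (3.33 ± 0.526 RPKM), which forms little current alone. In the calcium-activated group Kcnn2, an SK channel of the spike afterhyperpolarisation, was at 5.83 ± 0.666 RPKM. The sodium-activated Kcnt2 was at 3.13 ± 0.361 RPKM and the SK genes Kcnn1 and Kcnn3 were at 2.84 ± 0.222 and 1.99 ± 0.275 RPKM, where Kcnt2 and Kcnn1 did not differ beyond their spread. Hcn2 was at 28.9 ± 1.90 RPKM and made up 86.8% of the HCN genes. Hcn3 was at 2.67 ± 0.196 RPKM and Hcn4, known as a pacemaker channel, at 0.273 ± 0.0724 RPKM.

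The other 14 members did not pass the low-count filter and enter no comparison. Kcnj1, Kcnk16 and Kcnk18 had 0 counts of 314560962 in the 10 libraries together, which allows up to 0.00954 CPM for counting error (3 counts). Kcna10, Kcna7, Kcnh8, Kcnj13, Kcnj15, Kcnk15, Kcnk5, Kcnk7, Kcnn4, Kcnq1 and Kcnv2 had between 0 and 16 counts in any library. They include the choroid plexus channel gene Kcnj13, the epithelial Kcnq1 and the blood cell channel gene Kcnn4.

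No member passed the threshold between genotypes. With edgeR's quasi-likelihood test and p-values adjusted over all genes, 0 of 66 members tested were at an adjusted p under 0.05, against 0.00673% of all 14867 genes tested, which is Fndc5 alone. The smallest adjusted p of a member was 0.788, and DESeq2 also called 0 members. At an unadjusted p under 0.05 edgeR had 6 members, or 9.09%, against 6.29% of all genes (935 of 14867). DESeq2 had 6 members, beside 875 of 14867 genes. The edgeR count was 11 without knockout mouse 2, beside 1234 of 14928 genes, and 2 without knockout mouse 3, beside 648 of 14933 genes. Of the 6 in the main edgeR fit, 5 had values below 0, which is 7.58% of members tested against 3.75% of all genes. The other 1 had a value above 0, which is 1.52% against 2.54%. Of the 935 genes under that p, 557 had values below 0 and 378 above. The 5 knockouts lay entirely above or below the 5 wild types for 0 members and for 0.895% of all genes. Log2 fold changes were below 0 for 37 of 66 members (56.1%, all genes 49.3%), and under upper-quartile scaling for 31. The median was -0.0061 for members, or 0.0041 under upper-quartile scaling, and 0.0016 for all genes.

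**Figure D2:**
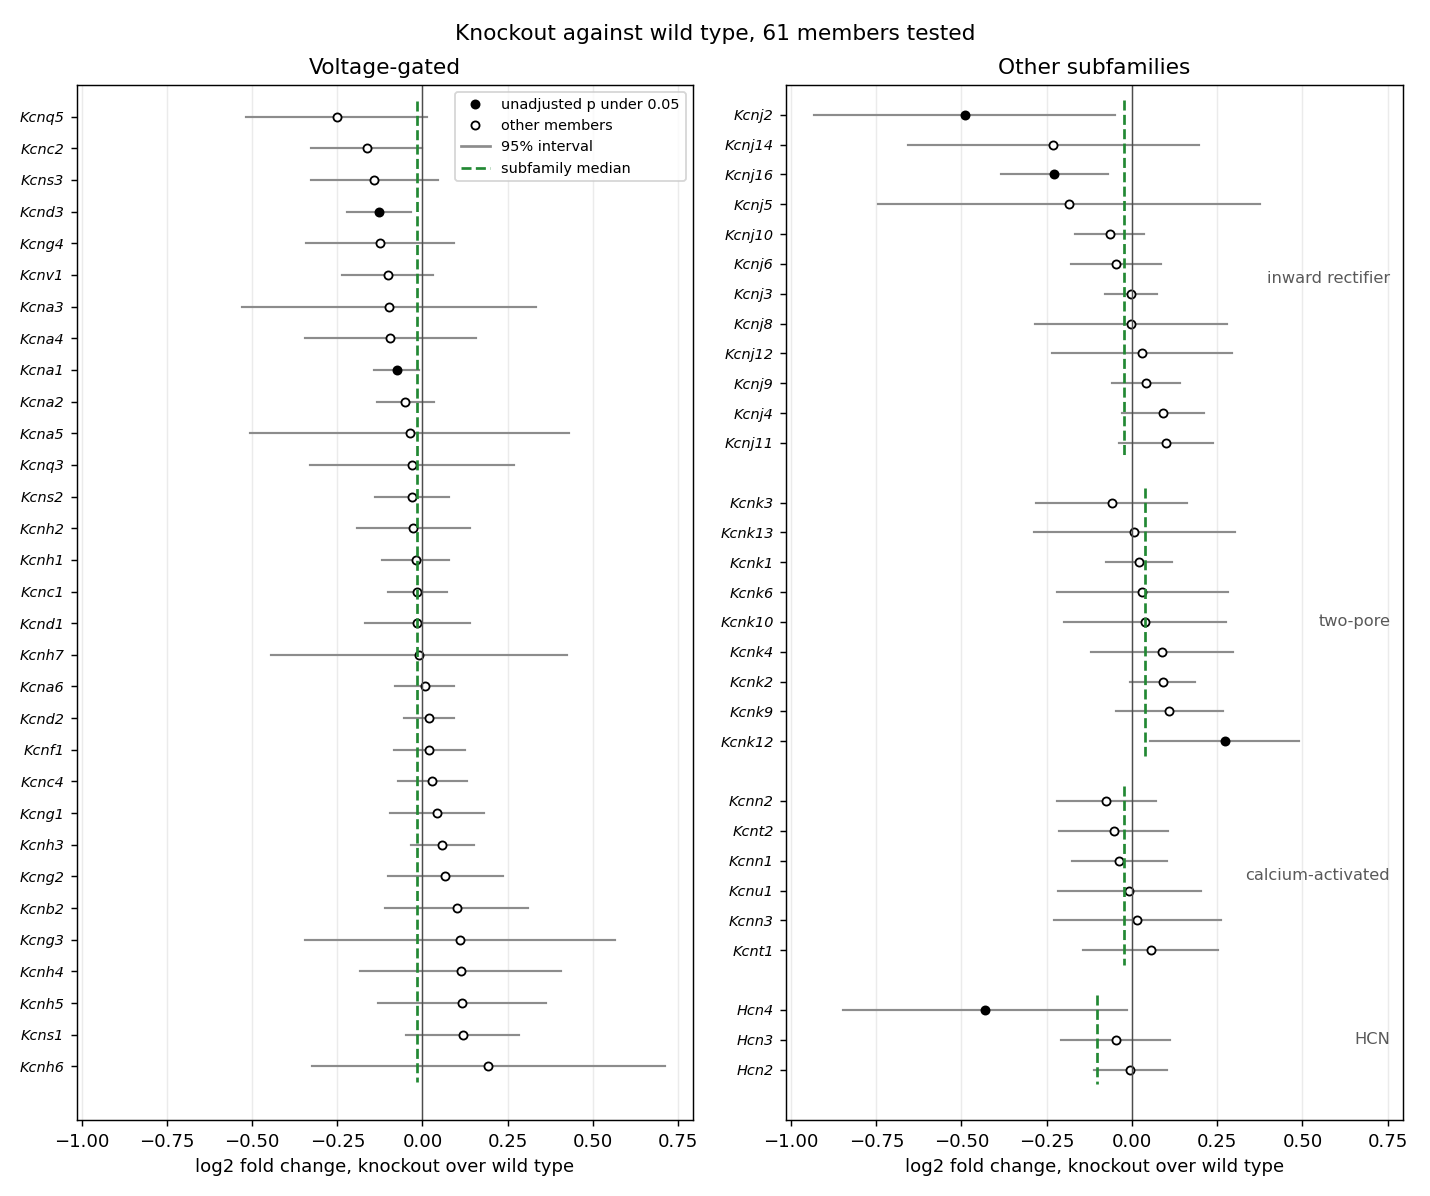
Log2 fold change of knockout over wild type for 61 of the members tested, with 95% intervals as grey bars, filled points for an unadjusted p under 0.05 and a dashed line at each subfamily's median. No member passed after adjustment, and the widest intervals belong to members of low level such as Kcnj5 and Kcnh6 and to Kcnj2.

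Most members were measured closely. For 46 of 66 members the whole 95% interval stayed inside a 1.25-fold change up or down, and for 61 inside 1.5-fold, which are 69.7% and 92.4%, beside 74.1% and 90.1% of all genes. All 66 intervals lay within 2-fold. The 5 members whose interval passed 1.5-fold were Hcn4, Kcnh6, Kcnj14, Kcnj2 and Kcnj5. Abundant channels had narrow intervals: Kcna1 was at -0.14 to -0.0092 on the log2 scale, Kcnd2 at -0.053 to 0.094 and Kcnj3 at -0.080 to 0.074.

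Among voltage-gated genes, 15 of 35 tested had values above 0 and 20 below, with a median of -0.015. Of the 35, 2 were at an unadjusted p under 0.05, beside 6.29% of all genes. The balance turned to 19 above and 16 below without wild-type mouse 1 (median 0.010) and likewise without knockout mouse 4 (median 0.0020). Kcnd3, an A-current subunit like Kcnd2, was at 151, 161, 154, 149 and 154 CPM in wild-type mice 1 to 5 and 142, 156, 141, 129 and 138 CPM in knockout mice 1 to 5. Every knockout except mouse 2 lay below every wild type (log2 fold change -0.13, SE 0.044, 95% interval -0.22 to -0.033, edgeR p 0.0109, adjusted p 0.788). Its paralog Kcnd2 was at 168 to 179 CPM in wild types and 165 to 181 CPM in knockouts (0.020, SE 0.035).

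Kcna1 was at 402, 421, 409, 413 and 406 CPM in wild types and 374, 397, 387, 386 and 403 CPM in knockouts. Knockout mouse 5 lay just above the lowest wild type, mouse 1, and the other 4 knockouts lay below all wild types (log2 fold change -0.076, SE 0.031, 95% interval -0.14 to -0.0092, edgeR p 0.0281, adjusted p 0.788). Its frequent partner Kcna2 was at 242 to 258 CPM in wild types and 223 to 259 CPM in knockouts (-0.050, SE 0.040), and 5 of 6 Kcna genes tested had values below 0 (4 to 6 over the alternatives).

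Kcnc2, a fast-spiking channel gene known from interneurons, was at 97.3, 85.1, 74.3, 74.6 and 72.8 CPM in wild types and 74.1, 77.6, 61.3, 71.6 and 76.4 CPM in knockouts. Wild-type mouse 1 was the highest and knockout mouse 3 the lowest, and the other 8 mice overlapped (log2 fold change -0.16, SE 0.078, edgeR p 0.05004, adjusted p 0.789). Kcnq5, an M-current subunit, was at 123, 91.2, 70.2, 78.0 and 89.8 CPM in wild types and 87.8, 78.9, 61.0, 67.1 and 85.3 CPM in knockouts, again with wild-type mouse 1 highest and knockout mouse 3 lowest (log2 fold change -0.25, SE 0.13, 95% interval -0.52 to 0.013, edgeR p 0.0612, adjusted p 0.789). Without wild-type mouse 1, whose interneuron markers were highest, the log2 fold changes were -0.088 for Kcnc2 and -0.11 for Kcnq5. Across the 10 interneuron markers, none without counts, 9 had values below 0 and 1 above, with a median of -0.10. At an unadjusted edgeR p under 0.05 were 4 of the 10, beside 6.29% of all genes. Their summed levels were 522 to 618 CPM in wild types and 495 to 544 CPM in knockouts. Knockout mouse 3, lowest for both genes, had a sum of 520.0 CPM, above the 495 CPM of knockout mouse 5. The part of interneuron content in Kcnc2 and Kcnq5 was not tested.

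Kcnc1 and Kcnc4, of the same family as Kcnc2 and of higher level, had values near 0. Kcnc1 was at 266 to 316 CPM in wild types and 281 to 289 CPM in knockouts (-0.015, SE 0.041), and Kcnc4 at 99.1 to 109 CPM and 96.7 to 117 CPM (0.029, SE 0.048). The signs of both turned when single libraries were left out.

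The remaining voltage-gated members were without a call. Among M-current genes Kcnq3 was at 1.71 ± 0.311 RPKM with a log2 fold change of -0.031 (SE 0.14). The A-type Kcna4, at 9.70 ± 2.01 RPKM, was at -0.094 (SE 0.12), and Kcna3, known from microglia and lymphocytes, at 0.884 ± 0.190 RPKM, was at -0.098 (SE 0.20). Kcnb2 was at 0.577 ± 0.0637 RPKM with a log2 fold change of 0.10 (SE 0.10). Of the 7 Kcnh genes tested, 4 had values above 0 and 3 below (7 above without wild-type mouse 1 and 6 without knockout mouse 4), from -0.027 for Kcnh2 to 0.19 for Kcnh6, which was at 0.149 ± 0.0381 RPKM (SE 0.24). The modifier subunits ran from -0.14 (SE 0.088) for Kcns3 to 0.12 (SE 0.078) for Kcns1, with Kcnv1 at -0.10 (SE 0.063) and Kcng2 at 0.068 (SE 0.080). Kcnd1, Kcng1, Kcng3, Kcng4, Kcnh4 and Kcnh5 lay between Kcns3 and Kcnh6 in fold change.

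Among inward rectifiers, 4 of 12 tested had values above 0 and 8 below (median -0.025), or 6 and 6 under upper-quartile scaling and without wild-type mouse 3. Of the 12, 2 were at an unadjusted p under 0.05, beside 6.29% of all genes. Kcnj16, a subunit of glial potassium uptake, had the smallest p of all members. It was at 17.4, 18.6, 16.8, 16.1 and 16.4 CPM in wild types and 15.5, 17.0, 13.7, 13.3 and 13.2 CPM in knockouts. Knockout mouse 2 lay within the wild types and the other 4 below them (log2 fold change -0.23, SE 0.075, 95% interval -0.39 to -0.069, edgeR p 0.00754, adjusted p 0.788). Its partner Kcnj10 was at 185 to 212 CPM in wild types and 169.5 to 202 CPM in knockouts, with 3 knockouts below every wild type (-0.066, SE 0.047). Of 6 astrocyte markers, all of which had counts, 3 had values below 0 and 3 above, with summed levels of 1445 to 1551 CPM in wild types and 1356 to 1551 CPM in knockouts. Knockout mouse 3 was lowest for that sum and for Kcnj10. Kcnj16 was lowest in knockout mice 5 and 4, whose sums of 1549 and 1479 CPM lay within the wild types. The part of astrocyte content in Kcnj16 and Kcnj10 was not tested.

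Kcnj2, a strong inward rectifier, had the largest fold change of the 66 members and a wide spread between mice. It was at 17.6, 50.7, 23.7, 34.3 and 26.7 CPM in wild types and 19.6, 24.5, 16.5, 21.6 and 26.7 CPM in knockouts. Wild-type mouse 2 was far above all other mice, wild-type mouse 1 was below 4 of the 5 knockouts, and the groups overlapped (log2 fold change -0.49, SE 0.21, 95% interval -0.93 to -0.049, edgeR p 0.0315, adjusted p 0.788). Without wild-type mouse 2 the log2 fold change was -0.23 (SE 0.154), and without wild-type mouse 1 it was -0.64 (SE 0.178). Of 4 endothelial markers, all of which had counts, 3 had values below 0 and 1 above, and they summed to 104 to 132 CPM in wild types and 99.6 to 132 CPM in knockouts. That sum and Kcnj2 were both highest in wild-type mouse 2 and lowest in knockout mouse 3. Other mice did not line up: knockout mouse 2 had a sum of 132 CPM, close to the highest, with Kcnj2 at 24.5 CPM, and wild-type mouse 4 had a lower sum than wild-type mouse 5 (112 and 127 CPM) with Kcnj2 higher. Endothelial content as a part of this result was not tested.

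The G protein-gated subunits had values close to 0. Kcnj3 spanned 214 to 239 CPM in wild types and 219.7 to 232 CPM in knockouts, a difference of -0.0028 (SE 0.037) on the log2 scale whose sign turned with the scaling. Kcnj9 was at 0.042 (SE 0.047) and the strong rectifier Kcnj4 at 0.091 (SE 0.057), with Kcnj4 at 86.5 to 106 CPM in wild types and 89.9 to 107 CPM in knockouts. Kcnj6 was at -0.047 (SE 0.063), and Kcnj11, the ATP-sensitive pore, at 0.10 (SE 0.066). The low-level members were less precise, with SE of 0.12 for Kcnj12 (1.07 ± 0.116 RPKM in wild types), 0.20 for Kcnj14 (0.317 ± 0.0656 RPKM) and 0.26 for Kcnj5, the cardiac G protein-gated subunit (0.131 ± 0.0248 RPKM).

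Two-pore channels had values above 0 for 8 of 9 members tested (5 without knockout mouse 5, and 6 to 8 over the other alternatives), with a median of 0.038. Of the 9, 1 was at an unadjusted p under 0.05, beside 6.29% of all genes. Kcnk12 was at 6.84, 4.92, 6.44, 6.84 and 7.76 CPM in wild types and 7.72, 7.29, 8.63, 8.49 and 7.39 CPM in knockouts. Wild-type mouse 5 lay within the knockouts and the other 4 wild types lay below every knockout (log2 fold change 0.27, SE 0.10, 95% interval 0.053 to 0.49, edgeR p 0.0182, adjusted p 0.788). Without wild-type mouse 2, the lowest, the log2 fold change was 0.19. Kcnk2 was at 45.2 to 52.0 CPM in wild types and 50.3 to 55.2 CPM in knockouts (0.090, SE 0.046), and Kcnk9 was at 0.11 (SE 0.074), or 0.038 without knockout mouse 2 and 0.068 without wild-type mouse 3. The abundant Kcnk1 was at 0.020 (SE 0.046), a sign that turned when knockout mouse 5 was left out. The other two-pore members tested were Kcnk10 at 0.038 (SE 0.11), Kcnk4 at 0.088 (SE 0.10), Kcnk6 at 0.031 (SE 0.12), Kcnk13 at 0.0070 (SE 0.14) and, alone below 0, the acid-sensitive Kcnk3 at -0.060 (SE 0.10).

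In the calcium-activated group 2 of 6 members tested had values above 0 (1 to 4 over the alternatives). Their median was -0.022, but 0.023 with a correction for GC content and length and 0.0045 without wild-type mouse 4. In the main edgeR fit 0 members were at an unadjusted p under 0.05, beside 6.29% of all genes. Kcnn2 was under that p with the GC and length correction and the mouse number as a block, beside 1045 of 14755 genes. Kcnn2 was at 37.9 to 49.5 CPM in wild types and 38.6 to 43.9 CPM in knockouts (-0.076, SE 0.069). Kcnn1 was at -0.037 (SE 0.066), Kcnn3 at 0.015 (SE 0.12) and Kcnt2 at -0.054 (SE 0.076). Kcnn3 varied more between mice, from 16.4 CPM in knockout mouse 1 to 26.4 CPM in knockout mouse 2. The signs of Kcnn1 and Kcnn3 turned when single libraries were left out, and that of Kcnt2 with a correction for GC content and length. The remaining members were Kcnt1, a sodium-activated channel, at 0.054 (SE 0.094) and Kcnu1 at -0.0075 (SE 0.10).

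All 4 HCN genes had values below 0, with the exception of Hcn2 under upper-quartile scaling or with single libraries left out. Their median was -0.10, and 1 of the 4 was at an unadjusted p under 0.05, beside 6.29% of all genes. Hcn4 was at 2.34, 1.5, 1.16, 1.82 and 1.52 CPM in wild types and 1.43, 1.41, 1.32, 0.977 and 0.962 CPM in knockouts. Wild-type mouse 1 was highest and wild-type mouse 3 lay among the knockouts (log2 fold change -0.43, SE 0.20, 95% interval -0.85 to -0.014, edgeR p 0.0434, adjusted p 0.788). Its counts were 25 to 77 per library, and without wild-type mouse 1 the log2 fold change was -0.27. That mouse also had the highest interneuron markers, whose part in Hcn4 was not tested. The far more abundant Hcn2 was at 85.8 to 100.1 CPM in wild types and 85.7 to 99.7 CPM in knockouts (-0.0048, SE 0.051), and Hcn3 at -0.048 (SE 0.076).

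**Figure D3:**
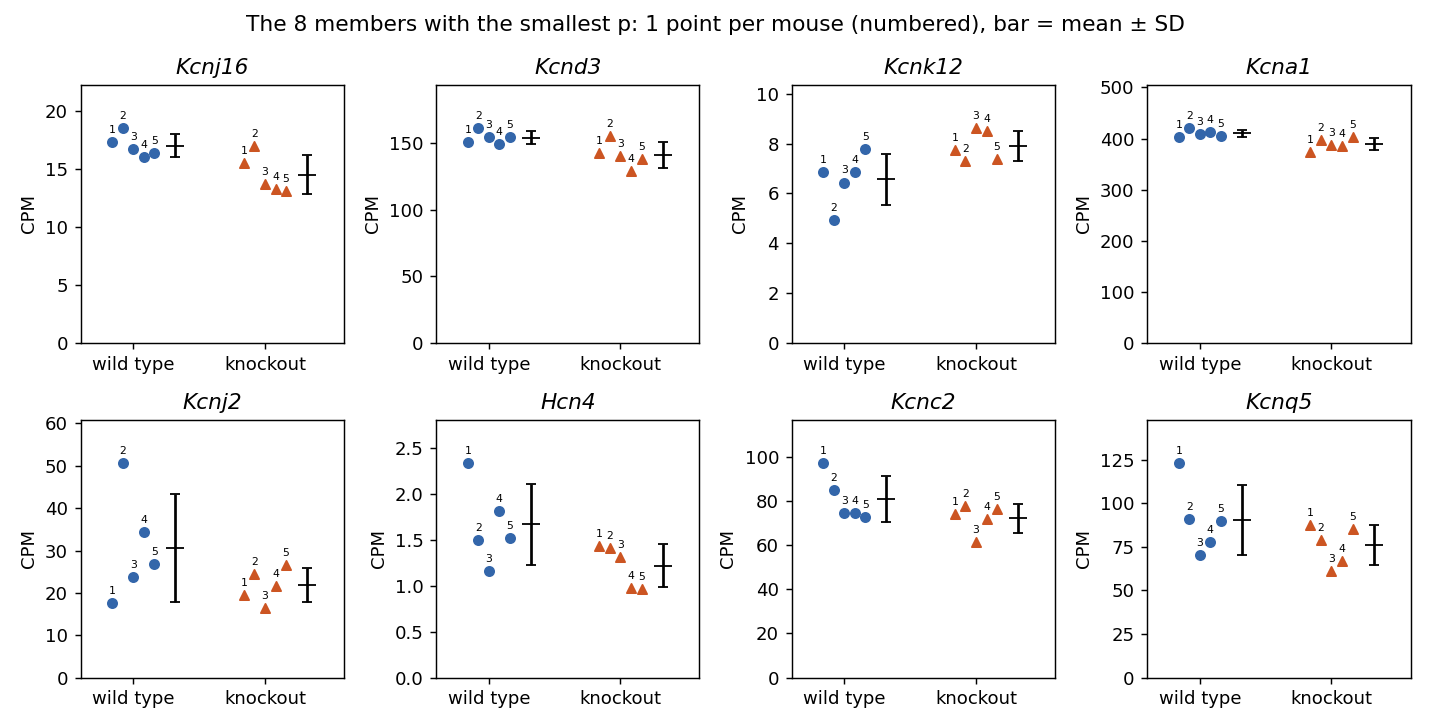
CPM in each mouse, numbered within its genotype, for the 8 members with the smallest p, with mean ± SD beside the points and axes from 0. For Kcnj16 and Kcnd3 the same knockout, mouse 2, reaches the wild types. Wild-type mouse 1 is highest for Hcn4, Kcnc2 and Kcnq5 and wild-type mouse 2 for Kcnj2.

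Summed over a subfamily, transcript levels in the 2 genotypes overlapped. Voltage-gated genes summed to 529.7 ± 7.66 RPKM in wild types and 524 ± 10.2 RPKM in knockouts, with mice between 521 and 540.2 in wild types and between 509.9 and 537 in knockouts. Inward rectifiers summed to 196 ± 4.43 RPKM in wild types and 197 ± 4.99 RPKM in knockouts, and HCN genes to 33.3 ± 2.16 RPKM in wild types and 32.9 ± 1.80 RPKM in knockouts. Two-pore channels summed to 82.6 ± 3.20 RPKM in wild types and 85.3 ± 3.02 RPKM in knockouts, with mice between 79.0 and 86.3 in wild types and between 80.9 and 88.0 in knockouts. The calcium-activated group summed to 16.9 ± 0.957 RPKM in wild types and 16.5 ± 0.486 RPKM in knockouts. Shares of the members' total also overlapped: voltage-gated genes were at 61.7% ± 0.616 in wild types and 61.2% ± 0.347 in knockouts, and two-pore channels at 9.61% ± 0.331 and 9.98% ± 0.327. For the voltage-gated share 4 wild types lay above every knockout, with mouse 4 the exception, and for the two-pore share 4 knockouts lay above every wild type, with mouse 2 the exception.

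**Figure D4:**
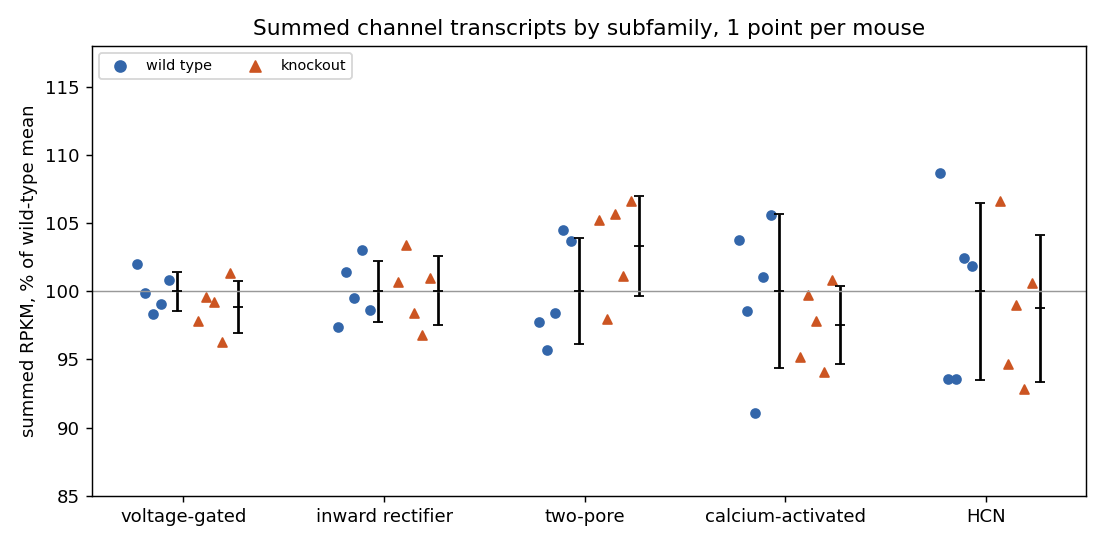
Summed RPKM of each subfamily in each mouse, as a percent of the wild-type mean, with mean ± SD beside the points; the axis starts at 85%. Wild types and knockouts overlap in all 5 subfamilies.

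Several members lie next to each other in the genome. Kcnj9 and Kcnj10, a neuronal and a glial channel gene, are 11.9 kb apart on chromosome 1 (chr1:172320501-172329318 and chr1:172341210-172374085, GRCm38), and had log2 fold changes of 0.042 and -0.066. Kcnj16 and Kcnj2, both with values below 0, are 38.2 kb apart on chromosome 11 (chr11:110968033-111027968 and chr11:111066164-111076821). Wild-type mouse 2 was the highest of the 10 mice for both genes, while wild-type mouse 1 was lowest of the wild types for Kcnj2 and second highest for Kcnj16. Kcna1, Kcna5 and Kcna6 share a cluster on chromosome 6, where Kcna1 is 61.9 kb from Kcna6 and 105 kb from Kcna5, with levels of 85.9 ± 1.5, 0.519 ± 0.108 and 11.2 ± 0.335 RPKM for Kcna1, Kcna5 and Kcna6. Kcna5 and Kcna6 were chosen for their position.

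The promoters of both inward rectifier pairs are shown because Kcnj16 and Kcnj2, neighbours, had the smallest p and the largest fold change of the members, and Kcnj10 and Kcnj9 hold the partner of Kcnj16 beside a neuronal gene. They run from 250 bases before to 50 after the start in RefSeq (GRCm38.p6), 5′ to 3′ on the gene's strand, at chr1:172329273-172329572, minus strand for Kcnj9, chr1:172340960-172341259, plus strand for Kcnj10, chr11:111019335-111019634, plus strand for Kcnj16 and chr11:111065914-111066213, plus strand for Kcnj2. Of 4 starts listed for Kcnj16 the third is shown, chosen for its TATA box. Capitals mark the motifs searched on both strands: the CRE TGACGTCA, the AP-1 site TGANTCA, the E-box CANNTG, the GC box GGGCGG, the TATA box TATAAA and the CCAAT box CCAAT.
Kcnj9: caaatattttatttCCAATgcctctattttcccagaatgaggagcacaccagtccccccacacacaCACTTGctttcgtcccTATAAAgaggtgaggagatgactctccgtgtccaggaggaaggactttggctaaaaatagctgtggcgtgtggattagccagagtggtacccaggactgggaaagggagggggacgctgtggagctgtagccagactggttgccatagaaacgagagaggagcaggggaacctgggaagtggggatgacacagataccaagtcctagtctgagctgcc
Kcnj10: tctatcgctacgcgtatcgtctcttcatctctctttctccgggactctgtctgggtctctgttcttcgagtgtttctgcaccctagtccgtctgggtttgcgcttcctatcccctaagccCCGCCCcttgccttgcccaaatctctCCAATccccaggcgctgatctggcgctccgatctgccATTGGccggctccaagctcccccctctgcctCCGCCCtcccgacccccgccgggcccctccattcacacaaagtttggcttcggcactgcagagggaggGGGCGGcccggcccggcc
Kcnj16: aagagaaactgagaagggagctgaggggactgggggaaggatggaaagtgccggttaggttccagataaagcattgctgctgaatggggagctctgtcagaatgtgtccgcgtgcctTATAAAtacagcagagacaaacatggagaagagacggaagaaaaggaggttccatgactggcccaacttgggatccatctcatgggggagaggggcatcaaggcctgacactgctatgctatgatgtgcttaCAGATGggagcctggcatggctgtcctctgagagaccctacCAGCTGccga
Kcnj2: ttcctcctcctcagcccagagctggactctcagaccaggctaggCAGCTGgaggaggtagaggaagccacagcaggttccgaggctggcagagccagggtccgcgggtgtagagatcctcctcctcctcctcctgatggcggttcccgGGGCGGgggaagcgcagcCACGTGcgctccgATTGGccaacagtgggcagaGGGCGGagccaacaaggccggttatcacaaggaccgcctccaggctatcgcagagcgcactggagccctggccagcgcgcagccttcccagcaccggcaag

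The Kcnj9 and Kcnj16 windows shown hold a TATA box, in both nearer the 5′ end of the window than the start. Those of Kcnj10 and Kcnj2 hold 3 and 2 GC boxes and more GC (63.7% and 66.7%, against 52.3% for Kcnj9 and 53.0% for Kcnj16). The other 3 starts of Kcnj16 hold no TATA box, and 1 of them holds a GC box. Promoters were listed for 55 members, with 69 windows of 300 bases. A GC box was in 52.2% of these windows and 35.7% of all 32851 windows, at a median GC content of 61.3% and 52.7%. A TATA box was in 5.80% of member windows and 13.6% of all, namely of Kcnj9, Kcnj13, Kcnj15 and Kcnj16. The CRE, bound by CREB, was in 0 of 69 member windows and 1.79% of all. The AP-1 site was in 1, of Kcnk2, and 7.81% of all, the E-box in 71.0% and 72.3%, and the CCAAT box in 27.5% and 37.4%. These are matches of letters and no measure of binding.

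Partner subunits and regulators outside the symbol rule were also without a call. Of 34 listed, 33 were in the table and 26 passed the filter, with 13 above and 13 below 0 (median -0.013). Of these 26, 0 were past the edgeR threshold and 2 at an unadjusted p under 0.05, beside 6.29% of all genes. Kcnab2, a cytoplasmic subunit of Kcna channels, had the highest level (129 ± 5.58 RPKM in wild types and 129 ± 4.55 in knockouts). Kcnip2, which binds Kcnd channels, was at 85.4 ± 5.01 and 86.9 ± 3.90 RPKM. Kcnma1, the pore of the large-conductance calcium-activated channel, was at 51.2, 50.8, 48.9, 48.4 and 54.5 CPM in wild types and 41.8, 53.2, 43.0, 47.3 and 46.2 CPM in knockouts, which overlapped (log2 fold change -0.13, SE 0.059, 95% interval -0.26 to -0.0081, edgeR p 0.0382, adjusted p 0.788). Abcc8, the sulfonylurea receptor that joins Kcnj11, was at 92.7, 92.1, 98.4, 99.1 and 95.4 CPM in wild types and 95.2, 95.7, 109, 104 and 108 CPM in knockouts, where 3 knockouts lay above every wild type (log2 fold change 0.10, SE 0.045, 95% interval 0.0054 to 0.19, edgeR p 0.0396, adjusted p 0.788). Kcnrg, a regulator of Kcna channels with few reads, was at 0.243 to 0.842 CPM and 0.318 to 0.500 CPM (-0.57, SE 0.29, edgeR p 0.0653, adjusted p 0.789).

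Some levels carry reads that may belong to another gene. Exons of 22 members overlap exons of another annotated gene, on the opposite strand for all but Kcnk4, and whether the counting used the strand is not given in the sources used here. The overlap covers 31.1% of the exon length of Kcnj3, 39.6% of Kcna6, 17.1% of Hcn3 and 49.1% of Kcnj13, and 1.72% of Kcnd3. Kcnj16, Kcnj2, Kcnk12, Kcna1 and Hcn4, the other members at an unadjusted p under 0.05, have none.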

How the data were processed

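RNA was measured in the dentate gyrus of 5 wild-type and 5 Fndc5 knockout mice, 1 library each. The authors deposited whole-number counts of reads for each gene, without normalisation. Per the labels' protocols, the libraries were poly(A)-selected and stranded, began with 500 ng of RNA and were sequenced to 75 bases from 1 end. STAR 2.5.1b, Cufflinks 2.2.1 and mm10 are named in the submitters' processing notes, with no role. Groups are from the genotype in each title.

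Genes were filtered with filterByExpr (14867 left), scaled by TMM and compared with edgeR 4.0.16 (glmQLFit, glmQLFTest) in R 4.3.3, with p-values adjusted over all genes by the Benjamini-Hochberg method and a threshold of 0.05. The SE of a log2 fold change is its size divided by the root of F. RPKM used exon unions of GENCODE M21 (GRCm38); 24498 rows matched by symbol, 45 by synonym and 439 not at all, and all 80 members matched. Lists are given as counts and medians, with no list test. Members and lists were chosen with earlier results of these data known. Named members are the 8 voltage-gated and 4 of each other subfamily with the highest wild-type RPKM, the HCN genes and the 8 with the smallest p, and of the auxiliary list the 2 highest and the 3 with the smallest p; other members are named to account for them or for their position. Values of 5 members are not reported here, though they enter the counts, medians and sums.

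The steps were tested on simulated counts of this comparison, with 14792 genes left after the filter. Of these, 67 were set to change 1.25-fold, 67 to change 1.5-fold and 65 to change 2-fold. The steps found 65.7%, 79.1% and 95.4% of them, while 11 unchanged genes were called. An adjusted p under 0.05 is easier to reach with that many changed genes than in the data, where 1 gene passed. These shares are therefore no measure of what could be found among the members. Alternatives were DESeq2 1.42.0, upper-quartile scaling, no filter, 1 CPM in 5 libraries, limma-voom (3.58.1) with and without sample weights, the mouse number as a block, a spline correction for GC content and length (4 degrees of freedom each), and each library left out in turn.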

Additional observations from a re-analysis of the deposited data

Results flagged for a closer look

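Among 72 groups of 5 mice checked for a mouse far from the rest of its genotype, 2 were found, against about 3.6 by chance. Kcnd2, the A-current subunit, was at 179 CPM in wild-type mouse 4, above the other wild types at 168 to 170.4 CPM. Kcnip2, the partner of Kcnd channels, was at 279 CPM in knockout mouse 2, below the other knockouts at 304 to 314 CPM.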

How the results depend on the processing

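No member passed the threshold in any of the 19 alternatives. The medians of the inward rectifiers (-0.066 to -0.0024) and the HCN genes (-0.13 to -0.070) stayed below 0, and that of the two-pore channels stayed above 0. Those of all members (-0.015 to 0.0041), the voltage-gated (-0.020 to 0.010) and the calcium-activated genes (-0.053 to 0.024) lay near 0 and turned sign in some. The count of all genes past the threshold was 1, and 3 with DESeq2, 8 with the replicate block, 10 with the block and the GC and length correction, and between 1 and 3 when a library was dropped, namely 3 for wild-type mouse 1 and 2 for knockout mouse 2. The count of members at an unadjusted p under 0.05 was 6, beside 935 of all 14867 genes, and 12 with the replicate block, beside 1493. Leaving out single libraries gave 2 to 11 members. The 2 were without knockout mouse 3, beside 648 of 14933 genes, and the 11 without knockout mouse 2, beside 1234 of 14928. The smallest adjusted p of a member over the alternatives was 0.0850, for Kcnq5 with the block. Deviations of mice that share a number had correlations of 0.209, 0.204, 0.108, 0.00901 and 0.0282, of which 2 were under 0.1, so the numbers were not treated as pairs. Wild-type mice 3 and 4 and knockout mice 4 and 5 had a closer partner of another number. For wild-type mice 1, 2 and 5 and knockout mice 1, 2 and 3 the closest partner shared the number. These values do not settle whether the mice were paired. Kcnj16 and Kcnd3 stayed at an unadjusted p under 0.05 in 19 of 19 alternatives each, Kcnk12 in 18, Kcna1 and Kcnj2 in 13 each, Hcn4 in 12, Kcnc2 in 9 and Kcnq5 in 7. Under upper-quartile scaling 57.4% of the genes under that p were above 0, against 40.4% with TMM, and 1 of 5 members against 1 of 6. The sign turned for named genes near 0 in 35 values. Upper-quartile scaling put Kcnj3 at 0.0075 and Hcn2 at 0.0051, and limma-voom with sample weights put Kcnn3 at -0.018. The GC and length correction, alone and with the block, put Kcnc4 at -0.012 and -0.012, Kcnj3 at 0.030 and 0.031, Kcnt2 at 0.041 and 0.044, Kcnab2 at -0.027 and -0.027, and Kcnip2 at -0.0066 and -0.0058. With single libraries left out the range was -0.042 to 0.021 for Kcnc1, -0.0088 to 0.060 for Kcnc4, -0.024 to 0.014 for Kcnj3, -0.0060 to 0.058 for Kcnk1, -0.063 to 0.011 for Kcnn1, -0.082 to 0.092 for Kcnn3, -0.035 to 0.026 for Hcn2, -0.011 to 0.029 for Kcnab2 and -0.0054 to 0.052 for Kcnip2. The causes of these shifts were not tested. With the longest transcript in place of the exon union the level of 12 of 25 named members moved by more than 1 SD. Members with few counts, such as Hcn4 with 25 to 77 per library, allow no finer statement than their intervals.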

Other observations

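Kcnu1, a potassium channel gene known for its role in sperm, was counted in every library of this brain region, with 111 to 217 counts. Its level was 1.31 ± 0.135 RPKM in wild types and 1.30 ± 0.122 in knockouts, close to that of the neuronal Kcnk3 (1.42 ± 0.201 RPKM in wild types). No annotated exon of another gene overlaps its exons, and which exons the reads come from cannot be read from counts per gene. Kcnj13, a channel gene of choroid plexus, had 0 to 8 counts per library, with a mean of 0.107 CPM in wild types. The 5 choroid plexus markers listed ran from 0.0336 CPM for Folr1 to 29.2 CPM for Kl in wild types, with Ttr at 4.56 CPM. Kcnk13, a two-pore channel of microglia, was at 0.960 ± 0.159 RPKM in wild types and 0.962 ± 0.163 in knockouts (log2 fold change 0.0070, SE 0.14), and the 5 microglia markers summed to 238 to 256 CPM in wild types and 225 to 269 CPM in knockouts. Kcnj8, a channel gene of pericytes, was at 0.823 ± 0.0996 and 0.822 ± 0.100 RPKM, and the 4 mural markers summed to 137 to 152 CPM in wild types and 131 to 153 CPM in knockouts. These genes were chosen after their values were seen.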
